A study of Homo sapiens with 12 samples.

Results

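Tight junctions join neighbouring epithelial cells near their apical side and limit what passes between them. Claudins are membrane proteins that form the strands of the junction, some as seals and some as channels for ions. Occludin, tricellulin and junctional adhesion molecules sit in the same membranes, and scaffold proteins such as zonula occludens-1 and cingulin tie them to the actin cytoskeleton from inside the cell. The transcripts of 10 tight junction genes were followed in A549, a human lung adenocarcinoma line. They were taken by symbol from a list of named junction genes, drawn up with earlier results of these data known, and all 10 were found among the 60617 genes of the count table. They were the claudins CLDN1, CLDN2, CLDN4, CLDN7 and CLDN12, the membrane proteins OCLN, MARVELD2 and F11R, and the scaffolds TJP1 and CGN. The label describes what these proteins are known for. RNA was measured, and neither protein nor the presence of junctions was.

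RNA sequencing covered 12 libraries in 4 groups of 3. In the first group YTHDF1, a reader of N6-methyladenosine in RNA, was knocked out (YTHDF1 KO). In the next, ARID1A, a subunit of the SWI/SNF chromatin remodeller, was silenced with siRNA (siARID1A). The remaining groups were YTHDF1 KO plus siARID1A (the combined group) and unmodified A549 (WT). The YTHDF1 arm is a knockout in the genotype labels and a knockdown in the titles. Whether its cells descend from a single clone is not stated, and no control siRNA is labelled. The effect of siRNA transfection and that of ARID1A loss therefore cannot be told apart, nor can those of YTHDF1 loss and of clonal origin. The labels count biological replicates within a group without saying that they were separate cultures, so p-values measure the spread between these libraries. In bulk RNA, fewer cells carrying a transcript and less of it per cell cannot be told apart either.

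Library totals ran from 30220717 to 45042635 counts. Levels are given as CPM, counts normalised to library totals after scaling by the trimmed mean of M-values (TMM), in the order of replicates 1, 2 and 3. YTHDF1 averaged 24.9 ± 2.08 CPM in YTHDF1 KO, 97.9 ± 4.69 in siARID1A, 30.9 ± 1.11 in the combined group and 88.2 ± 2.57 in WT (SD, n = 3 each). ARID1A averaged 161 ± 11.96 CPM in YTHDF1 KO, 42.5 ± 2.12 in siARID1A, 54.2 ± 6.51 in the combined group and 164 ± 14.1 in WT (SD, n = 3 each). WT replicate 2 stood apart from the other WT libraries. Mitochondrial genes took 4.85% of its counts against 6.81% to 8.23% in the other 11 libraries. The chi-square per degree of freedom between its counts and those of the other WT libraries was 50.4 and 48.7, against 12.5 between the others. Without it 2 member calls were lost, CGN in YTHDF1 KO against WT and CLDN2 in the interaction, and their values stand beside those results.

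The epithelial identity of the line was checked on 13 markers. The keratin KRT8 averaged 1484 CPM in YTHDF1 KO, 3619 in siARID1A, 1805 in the combined group and 4799 in WT. EPCAM (chromosome 2), an adhesion protein of epithelia, was low, at 0.785, 8.14, 1.66 and 3.52 CPM in the same order. The surfactant gene SFTPC and the lung factor NKX2-1 were near 0, with 5 and 2 counts over the WT libraries. The 17 markers of blood, endothelial, stromal and neural cells summed to between 51.6 and 58.6 CPM in YTHDF1 KO libraries, 51.5 to 72.3 in siARID1A, 57.4 to 71.7 in the combined group and 41.1 to 67.8 in WT. COL1A1 was the largest single contributor in each group, at 34.4, 31.5, 28.8 and 43.1 CPM in the same order. CD3E and CDH5 had 0 counts in all groups but WT, where they had 4 and 12. Those counts all lay in WT replicate 2, the library that stood apart. Against WT, of the 8 tested genes of this list 2 rose and 1 fell in YTHDF1 KO, 3 rose and 1 fell in siARID1A, and 5 rose and 1 fell in the combined group, with median log2 fold changes of 0.55, 0.33 and 1.82. COL3A1 (chromosome 2), a fibroblast collagen, averaged 5.88, 0.417, 5.79 and 0.174 CPM in YTHDF1 KO, siARID1A, the combined group and WT. ACTA2, an actin of smooth muscle, averaged 6.59, 22.1, 13.2 and 3.38 CPM in the same order, and RBFOX3, a neuronal splicing factor, 5.69, 8.83, 15.5 and 4.15 CPM. These 3 were singled out after their values were seen. The epithelial list itself also moved with the groups: of 10 tested markers 1 rose and 7 fell in YTHDF1 KO, 6 rose and 1 fell in siARID1A, and 1 rose and 6 fell in the combined group, each against WT. Beside both lists, 40.4%, 45.2% and 51.5% of all tested genes were called in YTHDF1 KO, siARID1A and the combined group against WT. The part of either list in the results below was not tested.

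The promoters of 4 members that moved the same way in all 3 comparisons against WT are shown here because the text returns to them. They are the 250 bases before the RefSeq start on GRCh38.p14, written 5′ to 3′ on the gene's strand. For CLDN2 and TJP1, which have 2 and 4 listed starts, the most upstream one was taken, and which start these cells use was not measured. F11R also moved one way and is named only. Motif matches are in capitals.
CLDN1, chr3:190322447-190322696, minus strand: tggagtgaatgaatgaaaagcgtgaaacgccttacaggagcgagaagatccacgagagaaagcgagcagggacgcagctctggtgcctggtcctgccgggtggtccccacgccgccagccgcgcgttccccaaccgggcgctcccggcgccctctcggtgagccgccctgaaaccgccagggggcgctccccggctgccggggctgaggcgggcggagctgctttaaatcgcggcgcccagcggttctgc
CLDN12, chr7:90403211-90403460, plus strand: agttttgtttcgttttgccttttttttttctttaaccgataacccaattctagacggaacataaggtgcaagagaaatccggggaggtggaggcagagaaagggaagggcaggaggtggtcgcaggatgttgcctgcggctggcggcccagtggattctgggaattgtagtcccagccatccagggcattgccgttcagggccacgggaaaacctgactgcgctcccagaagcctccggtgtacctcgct
CLDN2, chrX:106899914-106900163, plus strand: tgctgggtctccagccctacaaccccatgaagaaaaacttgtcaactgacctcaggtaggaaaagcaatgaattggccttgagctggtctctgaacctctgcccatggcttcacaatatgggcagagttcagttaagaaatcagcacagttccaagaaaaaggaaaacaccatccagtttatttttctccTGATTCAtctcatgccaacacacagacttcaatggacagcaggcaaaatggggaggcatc
TJP1, chr15:29969050-29969299, minus strand: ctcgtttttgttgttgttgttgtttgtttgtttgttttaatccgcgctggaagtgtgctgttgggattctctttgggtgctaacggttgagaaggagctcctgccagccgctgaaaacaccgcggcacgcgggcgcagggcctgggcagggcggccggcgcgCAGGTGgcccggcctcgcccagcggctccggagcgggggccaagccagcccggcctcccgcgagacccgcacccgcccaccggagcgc
These windows differ in base composition, with 68.8% G or C in CLDN1, 54.4% in CLDN12, 46% in CLDN2 and 66.8% in TJP1. Each was searched on both strands for CAGGTG, the E-box bound by SNAI and ZEB repressors, AACCGGTT, bound by grainyhead-like (GRHL) factors, TGANTCA, bound by AP-1, and TATAAA. The TJP1 window holds 1 E-box, 88 to 83 bases before the start. The CLDN2 window holds 1 match to the loose AP-1 form, TGATTCA, 60 to 54 bases before the start, which is not the usual site. The windows of the other listed starts of TJP1 and CLDN2 hold no searched motif. No searched motif is in the CLDN1 or CLDN12 window. Among all 35116 RefSeq windows of 250 bases, 17.5% hold the E-box, 6.57% the loose AP-1 form, 10.7% TATAAA and 0.117% the GRHL motif. The other members had these matches: OCLN has an E-box in each of 2 windows, and 1 of 2 CLDN7 windows has 4 E-box matches. CLDN4 has 2 matches to the loose AP-1 form, TGATTCA and TGACTCA. A match describes letters and not a bound site.

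Per length, CLDN1 was the most abundant member in every group, though in WT its place before TJP1 depended on the gene length used. Levels per length are TPM, computed from the counts over the union of a gene's annotated exons. In YTHDF1 KO the order was CLDN1 376 ± 8.06, TJP1 45.9 ± 4.29, CLDN12 23.9 ± 1.94, F11R 22.5 ± 0.138, CGN 10.3 ± 1.36, OCLN 9.57 ± 0.494, CLDN4 1.39 ± 0.274, CLDN2 1.06 ± 0.388, MARVELD2 0.581 ± 0.0199 and CLDN7 0.152 ± 0.128 TPM (SD, n = 3). The neighbours that overlapped there were CLDN12 and F11R, CGN and OCLN, and CLDN4 and CLDN2. CLDN1 stood at 189 ± 21.9 TPM in siARID1A, ahead of TJP1 at 49.2 ± 3.39, and at 397 ± 15.3 TPM in the combined group, ahead of TJP1 at 41.9 ± 6.37 (SD, n = 3). In WT the order was CLDN1 83.0 ± 12.99, TJP1 67.4 ± 5.70, CLDN2 16.9 ± 2.53, F11R 15.8 ± 2.04, CLDN12 14.7 ± 3.06, CGN 12.1 ± 1.68, OCLN 5.42 ± 0.355, CLDN4 1.19 ± 0.547, MARVELD2 0.680 ± 0.101 and CLDN7 0.203 ± 0.0725 TPM (SD, n = 3). The ranges of CLDN1 and TJP1 over the WT libraries overlapped, as did those of each neighbouring pair from CLDN2 to CGN. Within each WT library CLDN1 was above TJP1, at 1.09, 1.25 and 1.36 times its TPM. With the length of the longest transcript in place of the exon union, TJP1 came before CLDN1 and CLDN12 before CLDN2 in WT. The 10 genes together took 0.0666%, 0.0495% and 0.0699% of counts in YTHDF1 KO, siARID1A and the combined group, against 0.0397% in WT.

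**Figure D1:**
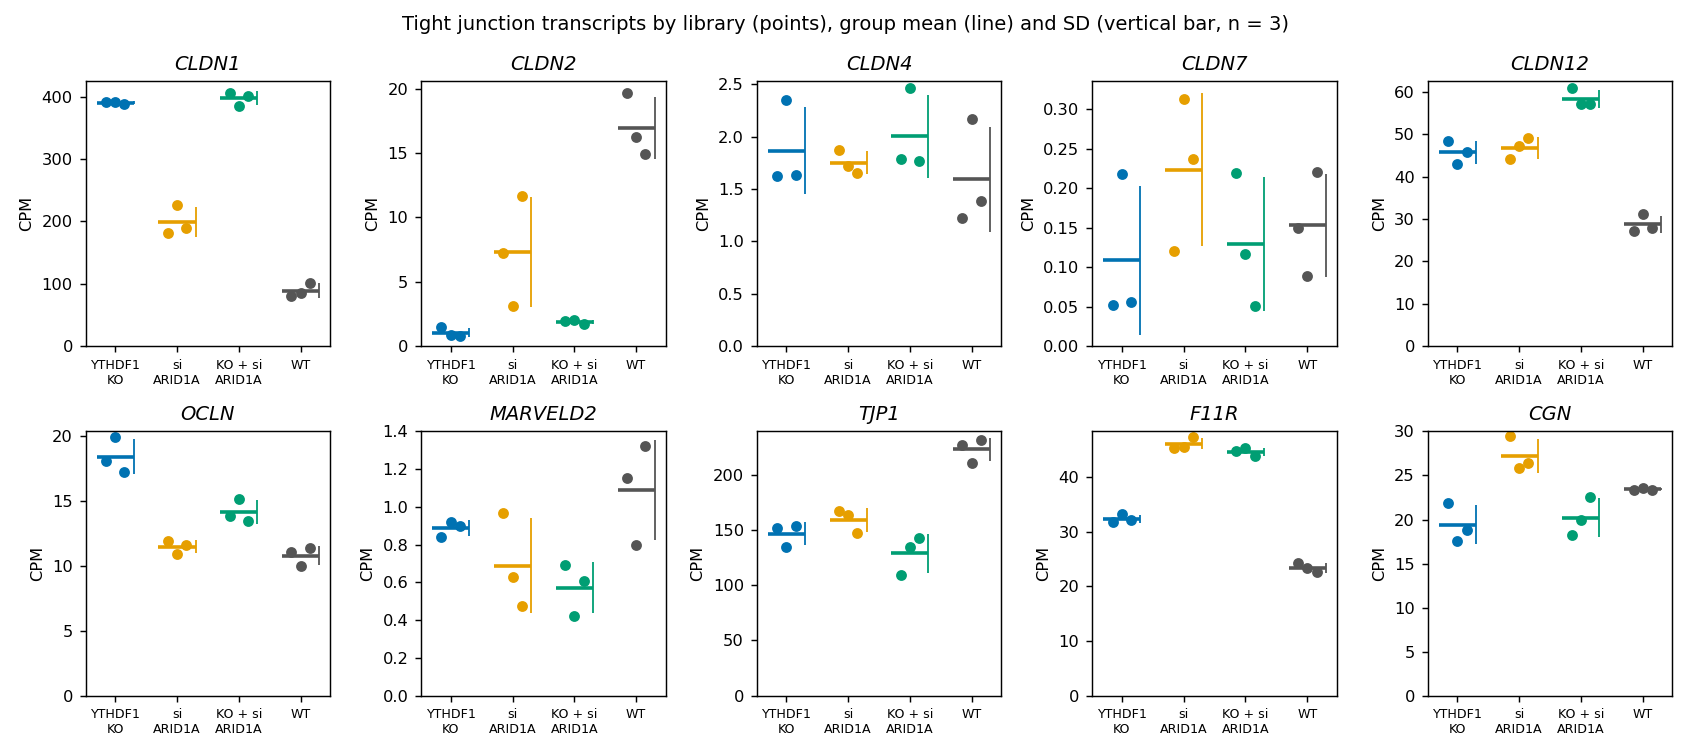
CPM (linear axes from 0, one scale per gene) of the 10 members in each library, with points for replicates 1 to 3, a line at the group mean and a bar for the SD (n = 3). CLDN1 lies at 385 to 407 CPM in the libraries with YTHDF1 knocked out and at 79.97 to 102 CPM in WT, and CLDN2 is highest in WT.

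Against WT, CLDN1, CLDN12 and F11R rose and CLDN2 and TJP1 fell in all 3 groups, while OCLN rose in the groups with the knockout. Calls are from edgeR's quasi-likelihood test with Benjamini-Hochberg adjustment over 18524 genes and a threshold of 0.05, and 9 of the 10 members passed the filter on low counts. In YTHDF1 KO 4 members rose (CLDN1, CLDN12, OCLN and F11R) and 3 fell (CLDN2, TJP1 and CGN), where 40.4% of all tested genes were called, 19.6% higher and 20.8% lower. In siARID1A 3 rose (CLDN1, CLDN12 and F11R) and 2 fell (CLDN2 and TJP1), where 45.2% of all genes were called, 22.1% higher and 23% lower. In the combined group 4 rose (CLDN1, CLDN12, OCLN and F11R) and 3 fell (CLDN2, MARVELD2 and TJP1), where 51.5% were called, 25.6% higher and 25.9% lower. With 9 members tested, 1 gene more or less moves these shares widely, and nothing particular to the members is read from them. The 3 comparisons share the WT libraries and do not repeat each other independently. The members' median log2 fold change was 0.22 for YTHDF1 KO, 0.13 for siARID1A and 0.33 for the combined group, against -0.01 over all genes in each. Libraries did not overlap between the groups for 7, 6 and 8 members, where the same held for 48.7%, 50.2% and 56.2% of all genes.

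**Figure D2:**
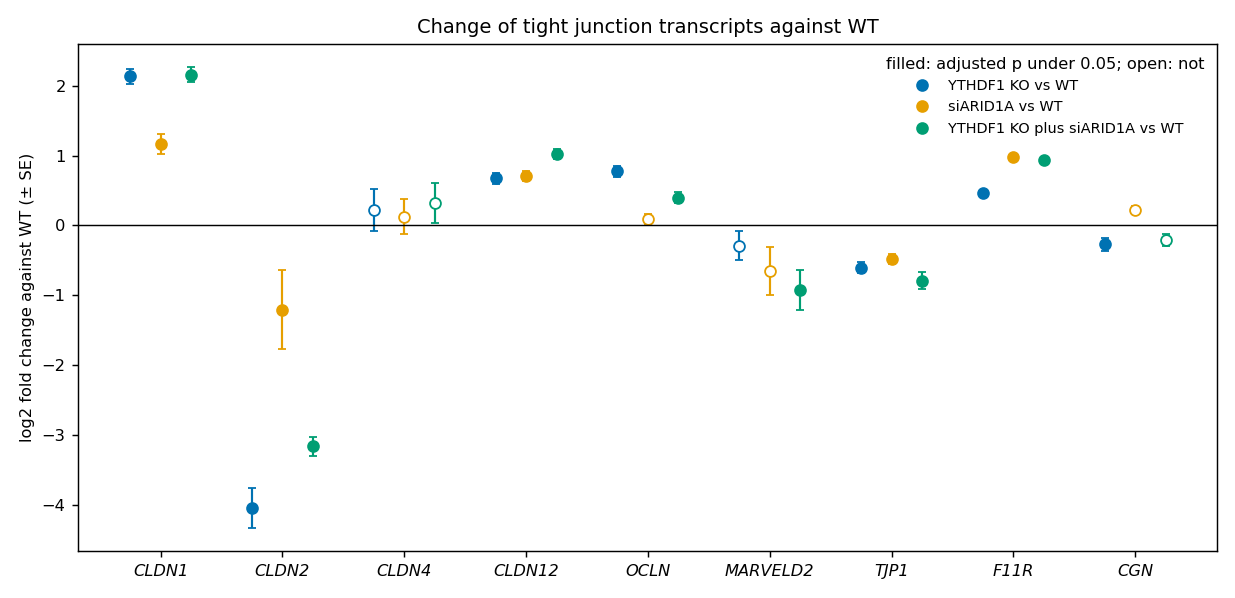
Log2 fold change against WT (± SE) of the 9 tested members in YTHDF1 KO, siARID1A and the combined group, filled where the adjusted p was under 0.05. CLDN1, CLDN12 and F11R lie above 0 and CLDN2 and TJP1 below 0 in all 3 comparisons.

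CLDN1, a claudin that seals the junction (ENSG00000163347, chromosome 3, 190305701 to 190322475, minus strand, GRCh38), rose in every group relative to WT. It stood at 392, 392 and 389 CPM in YTHDF1 KO, 182, 226 and 189 CPM in siARID1A, 407, 385 and 401 CPM in the combined group, and 79.97, 85.4 and 102 CPM in WT. The siARID1A libraries lay between those of WT and those with the knockout, with no overlap on either side, and the YTHDF1 KO and combined libraries overlapped. Its log2 fold change against WT was 2.13 ± 0.10 in YTHDF1 KO (adjusted p = 6.09e-16), 1.16 ± 0.14 in siARID1A (7.73e-11) and 2.16 ± 0.11 in the combined group (3.08e-16), where errors are SE and values in brackets are adjusted p from the same edgeR test, as below. The combined group exceeded siARID1A by 1.00 ± 0.10 (7.91e-10). Against YTHDF1 KO it differed by 0.03 ± 0.02, which did not pass (adjusted p = 0.875).

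CLDN2, which forms channels for small cations and water (ENSG00000165376, chromosome X, 106900164 to 106930861, plus strand), fell in every group relative to WT. It stood at 1.44, 0.822 and 0.814 CPM in YTHDF1 KO, 7.22, 3.10 and 11.6 CPM in siARID1A, 1.98, 1.99 and 1.71 CPM in the combined group, and 19.6, 16.2 and 14.95 CPM in WT. All WT libraries were above all others, and the siARID1A libraries spread widely, with replicate 3 nearest to WT and replicate 2 nearest to the combined group. The log2 fold change was -4.04 ± 0.28 in YTHDF1 KO (adjusted p = 7.40e-06), -1.21 ± 0.56 in siARID1A (0.0123) and -3.16 ± 0.14 in the combined group (2.25e-05). The siARID1A call was lost when only those groups entered the fit (adjusted p = 0.0648), and its log2 fold change was -1.71 without siARID1A replicate 3 and -0.85 without replicate 2. The counts behind these levels were 118 over the YTHDF1 KO libraries, 732 in siARID1A, 216 in the combined group and 1996 in WT. Set against siARID1A, its log2 fold change in the combined group was -1.95 ± 0.56 (adjusted p = 0.00192), and -2.31 without siARID1A replicate 2 and -1.45 without replicate 3. Against YTHDF1 KO it stood 0.88 ± 0.27 higher without passing (0.220), although its libraries did not overlap those of YTHDF1 KO. It passed in 3 of 19 alternative analyses. These were the fit of those groups alone (adjusted p = 0.0147) and the fits without siARID1A replicate 2 (0.0107) or 3 (0.0481).

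CLDN12, a claudin without the usual scaffold-binding tail (ENSG00000157224, chromosome 7, 90383721 to 90513402, plus strand), rose in all 3 groups and was highest in the combined one. It stood at 48.5, 43.1 and 45.8 CPM in YTHDF1 KO, 44.1, 47.3 and 49.1 CPM in siARID1A, 60.8, 57.0 and 57.1 CPM in the combined group, and 27.2, 31.1 and 27.8 CPM in WT. The YTHDF1 KO and siARID1A libraries overlapped each other, and both lay between WT and the combined group. The log2 fold change against WT was 0.67 ± 0.08 in YTHDF1 KO (adjusted p = 1.52e-07), 0.70 ± 0.07 in siARID1A (8.63e-08) and 1.02 ± 0.07 in the combined group (6.86e-11). It was in the combined group also 0.35 ± 0.06 above YTHDF1 KO (0.00153) and 0.32 ± 0.06 above siARID1A (0.00209). Genes within 5 Mb of CLDN12 had median log2 fold changes of 0.24 in the combined group against siARID1A and 0.04 against YTHDF1 KO. Against WT their medians were 0.13, 0.07 and 0.10 in YTHDF1 KO, siARID1A and the combined group. CLDN12 was not the only member in a shifted region. Around CLDN2, which fell, these medians were larger, at 0.20, 0.45 and 0.33, and around TJP1 they were -0.11, -0.04 and 0.06. The part of such regional shifts in the values of these members was not tested. Of the exon bases of CLDN12, 16.3% also belong to exons of other genes on its strand, among them GTPBP10 and CDK14, so reads there may be divided between them.

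CLDN4 and CLDN7, claudins common in tight epithelia, were scarce. CLDN4 (ENSG00000189143, chromosome 7, 73799542 to 73832693, plus strand) stood at 1.62, 2.35 and 1.63 CPM in YTHDF1 KO, 1.87, 1.72 and 1.66 CPM in siARID1A, 1.79, 2.46 and 1.76 CPM in the combined group, and 1.22, 2.17 and 1.38 CPM in WT. Its groups overlapped, and it passed in none of the 6 comparisons, with log2 fold changes against WT of 0.22 ± 0.30, 0.13 ± 0.25 and 0.33 ± 0.29 in YTHDF1 KO, siARID1A and the combined group (adjusted p = 0.539, 0.736 and 0.312). CLDN7 (ENSG00000181885, chromosome 17, 7259903 to 7263983, minus strand) had 66 counts in the 12 libraries. It was left out by the filter on low counts and was not tested. Its libraries held 0.0524, 0.218 and 0.0562 CPM in YTHDF1 KO, 0.121, 0.313 and 0.237 CPM in siARID1A, 0.220, 0.117 and 0.0504 CPM in the combined group, and 0.150, 0.0885 and 0.220 CPM in WT, which at this depth showed no separation.

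The make-up of claudin RNA followed from these levels. The 24 claudin genes in the table summed to 433 ± 10.9 TPM in YTHDF1 KO. They summed to 259.5 ± 19.9 TPM in siARID1A and 471 ± 16.1 TPM with both changes, against 142 ± 21.2 TPM in WT (SD, n = 3 each). CLDN1 made up 86.8 ± 0.362% of that sum in YTHDF1 KO, 72.9 ± 2.83% in siARID1A, 84.4 ± 0.381% in the combined group and 58.3 ± 4.93% in WT. CLDN2 made up 0.244 ± 0.0838%, 2.95 ± 1.79%, 0.432 ± 0.0396% and 12.02 ± 2.32% in the same order. The ratio of CLDN1 to CLDN2, the sealing over the channel-forming claudin, was 253, 444 and 444 in the YTHDF1 KO libraries, 23.4, 67.9 and 15.1 in siARID1A, 192, 180 and 218 in the combined group, and 3.79, 4.90 and 6.35 in WT. The libraries of the 4 groups did not overlap in this ratio. Part of the rest was CLDN15, another channel-forming claudin, singled out after its values were seen, at 4.40 ± 0.249%, 8.98 ± 0.537%, 4.64 ± 0.193% and 13.3 ± 3.26% in the same order. These shares are bound to each other, since a higher CLDN1 level lowers the share of every other claudin.

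**Figure D3:**
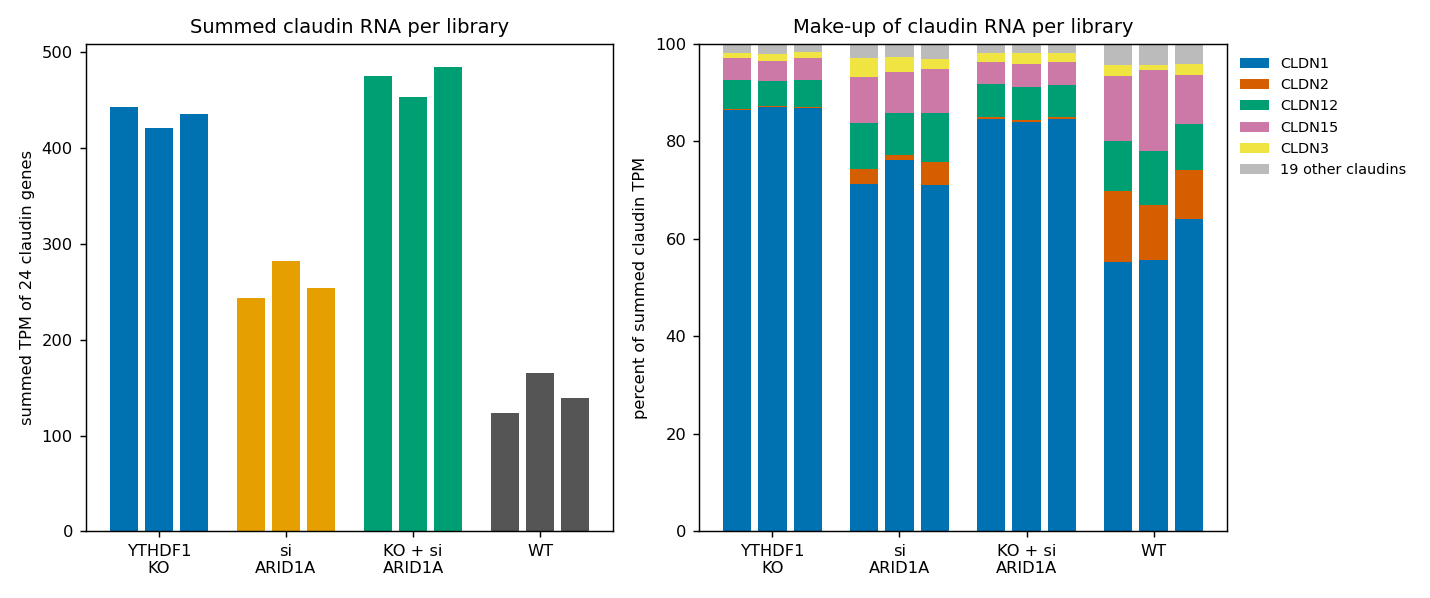
Summed TPM of 24 claudin genes in each library (left, bars from 0) and the percent of that sum taken by 5 claudins and by the other 19 (right), for the 3 replicates of each group. The sum is lowest in WT, where CLDN1 takes 58.3% on average and CLDN2 12.02%.

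Beyond the members, 19 other claudin genes were listed and 11 passed the filter on low counts. In YTHDF1 KO 2 rose and 2 fell, in siARID1A 2 rose and 1 fell, and in the combined group 2 rose and 2 fell, each against WT. Of all tested genes 40.4%, 45.2% and 51.5% were called there. The median log2 fold change of these claudins was 0.35, 0.26 and 0.15 in the same order. CLDN3, which lies 29271 bases from CLDN4 on chromosome 7, was among those that rose, and CLDN4 beside it did not pass. CLDN3 stood at 1.83, 2.20 and 1.80 CPM in YTHDF1 KO, 3.324, 3.07 and 2.01 CPM in siARID1A, 3.01, 3.61 and 2.97 CPM in the combined group, and 1.10, 0.531 and 1.26 CPM in WT. Its log2 fold change was 1.04 ± 0.37 in YTHDF1 KO (adjusted p = 0.00428), 1.56 ± 0.42 in siARID1A (5.70e-05) and 1.76 ± 0.37 in the combined group (7.66e-06).

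F11R, which encodes the junctional adhesion molecule JAM-A (ENSG00000158769, chromosome 1, 160995211 to 161021348, minus strand), rose in all 3 groups. It stood at 31.7, 33.1 and 32.2 CPM in YTHDF1 KO, 45.3, 45.5 and 47.2 CPM in siARID1A, 44.6, 45.3 and 43.8 CPM in the combined group, and 24.3, 23.3 and 22.6 CPM in WT. The YTHDF1 KO libraries lay between WT and both groups with siARID1A, without overlap. The log2 fold change against WT was 0.47 ± 0.04 in YTHDF1 KO (adjusted p = 1.46e-05), 0.98 ± 0.04 in siARID1A (1.36e-10) and 0.93 ± 0.03 in the combined group (1.24e-10). With both changes it was 0.46 ± 0.02 above YTHDF1 KO (3.91e-05) and differed from siARID1A by -0.05 ± 0.02, which did not pass (0.680). CLDN1 had the other pattern, with the combined group overlapping YTHDF1 KO and above siARID1A. AL591806.3, annotated on the same strand, overlaps 36.6% of the exon bases of F11R and had 31 counts in the 12 libraries against 16114 of F11R. How reads on shared bases were assigned is not given, and these counts do not show whether such reads were left out. The TPM of F11R may therefore be too low.

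OCLN, occludin (ENSG00000197822, chromosome 5, 69492292 to 69558104, plus strand), rose with the knockout. It stood at 18.0, 19.9 and 17.2 CPM in YTHDF1 KO, 11.9, 10.9 and 11.6 CPM in siARID1A, 13.8, 15.2 and 13.5 CPM in the combined group, and 11.05, 9.95 and 11.3 CPM in WT. The siARID1A and WT libraries overlapped, and the combined group lay between those and YTHDF1 KO. The log2 fold change against WT was 0.77 ± 0.08 in YTHDF1 KO (adjusted p = 1.42e-06) and 0.39 ± 0.08 in the combined group (0.00291), and 0.09 ± 0.07 in siARID1A did not pass (0.520). The log2 fold change of the combined group against YTHDF1 KO was -0.38 ± 0.08 (0.00870), a call lost without YTHDF1 KO replicate 2 (0.0650). It was 0.30 ± 0.06 above siARID1A (0.0274), a call lost without siARID1A replicate 2 (0.0898) or 3 (0.0559), without combined replicate 2 (0.126), or with no filter (0.0735).

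MARVELD2, which encodes tricellulin, a protein of the points where 3 cells meet, lies 47961 bases from OCLN (ENSG00000152939, chromosome 5, 69415065 to 69444330, plus strand). It stood at 0.838, 0.919 and 0.899 CPM in YTHDF1 KO, 0.967, 0.627 and 0.473 CPM in siARID1A, 0.690, 0.422 and 0.605 CPM in the combined group, and 1.15, 0.796 and 1.32 CPM in WT, on 64 to 124 counts a group. The combined libraries lay below WT, and the other groups overlapped WT. It fell in the combined group against WT, with a log2 fold change of -0.93 ± 0.28 (adjusted p = 0.0391), a call held in 11 of 19 alternative analyses and lost without combined replicate 2 (0.150) or 3 (0.0691) or without WT replicate 1 (0.0865) or 3 (0.123). That call was also lost on library totals (0.0792), with DESeq2 (0.0697), with no filter (0.0948) or with only those groups in the fit (0.0582). The other 5 comparisons did not pass. Genes within 5 Mb of MARVELD2 had a median log2 fold change of 0.06 in the combined group against WT.

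TJP1, which encodes the scaffold zonula occludens-1 (ENSG00000104067, chromosome 15, 29699367 to 29968865, minus strand), fell in all 3 groups. It stood at 152, 135 and 154 CPM in YTHDF1 KO, 167, 163 and 147 CPM in siARID1A, 109, 135 and 143 CPM in the combined group, and 227, 211 and 231 CPM in WT. Every WT library was above every other library, and the other 3 groups lay close together. The log2 fold change against WT was -0.60 ± 0.07 in YTHDF1 KO (adjusted p = 2.48e-06), -0.49 ± 0.07 in siARID1A (4.47e-05) and -0.79 ± 0.12 in the combined group (2.57e-08). Set against siARID1A, the combined group differed by -0.30 ± 0.13 (0.00639), a call lost without combined replicate 1 (-0.19, adjusted p = 0.0759). It differed from YTHDF1 KO by -0.19 ± 0.13 without passing (0.121), and passed there without combined replicate 3 (0.0465).

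CGN, which encodes cingulin, a link between the junction and actomyosin (ENSG00000143375, chromosome 1, 151510510 to 151538692, plus strand), moved little. It stood at 21.8, 17.6 and 18.8 CPM in YTHDF1 KO, 29.5, 25.8 and 26.4 CPM in siARID1A, 18.2, 20.0 and 22.5 CPM in the combined group, and 23.3, 23.6 and 23.4 CPM in WT. The siARID1A libraries were above WT and the libraries with the knockout were below it. YTHDF1 KO fell relative to WT, with a log2 fold change of -0.27 ± 0.09 (adjusted p = 0.0320), a call held in 11 of 19 alternative analyses and lost without WT replicate 1 (0.0587), 2 (0.0660) or 3 (0.0532), or without YTHDF1 KO replicate 2 (0.172) or 3 (0.106). That call was also lost on library totals (0.183), with DESeq2 (0.0520) or with no filter (0.0642). The values of 0.22 ± 0.06 in siARID1A (0.0798) and -0.21 ± 0.09 in the combined group (0.0814) did not pass against WT. But the combined group passed without its replicate 3 (0.0320) or with TMM without genes of chromosomes 2 and 9 (0.0368), and siARID1A passed on library totals (0.0352). Against siARID1A the combined group differed by -0.43 ± 0.11 (0.00140).

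The combined group was also set against each single change. Against YTHDF1 KO, 2 members rose (CLDN12 and F11R) and OCLN fell, where 23.4% of all genes were called, 12.5% higher and 10.9% lower, and 5 members did not overlap, against 43.7% of all genes. Against siARID1A, 3 rose (CLDN1, CLDN12 and OCLN) and 3 fell (CLDN2, TJP1 and CGN), where 35.4% of all genes were called, 18.2% higher and 17.2% lower, and 7 members did not overlap, against 48.3% of all genes. All 6 members called against siARID1A had also been called, in the same direction, in YTHDF1 KO against WT, as had 3941 of the 6563 genes called in all. These comparisons share no library but come from the same fit. Whether both knockout groups descend from a single clone is not stated, so they may not be independent.

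The interaction asked whether siARID1A changed a transcript to a different extent in YTHDF1 KO cells and in WT cells, and 5 of the 9 members passed, 1 higher and 4 lower, where 17.1% of all genes did, 8.87% higher and 8.22% lower. For CLDN1 the change with siARID1A was 0.03 ± 0.02 in YTHDF1 KO cells and 1.16 ± 0.14 in WT cells, a difference of -1.14 ± 0.14 (adjusted p = 2.21e-07). For F11R it was 0.46 ± 0.02 in YTHDF1 KO cells and 0.98 ± 0.04 in WT cells, a difference of -0.51 ± 0.04 (9.64e-04). Both passed in all 18 alternative analyses. The other 3 depended on single libraries. CLDN12 changed by 0.35 ± 0.06 in YTHDF1 KO cells and 0.70 ± 0.07 in WT cells, a difference of -0.36 ± 0.09 (0.0267) that passed in 11 of 18 alternatives. OCLN changed by -0.38 ± 0.08 in YTHDF1 KO cells and by 0.09 ± 0.07 in WT cells, a difference of -0.47 ± 0.11 (0.0296) that passed in 12 of 18. CLDN2 changed by 0.88 ± 0.27 in YTHDF1 KO cells and by -1.21 ± 0.56 in WT cells, a difference of 2.09 ± 0.62 (0.0282) that passed in 10 of 18 and was lost without WT replicate 2 (0.0758). Of the members that did not pass, TJP1 had a difference of 0.30 ± 0.15 (0.0913), which passed without combined replicate 1 (0.41, adjusted p = 0.0110).

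**Figure D4:**
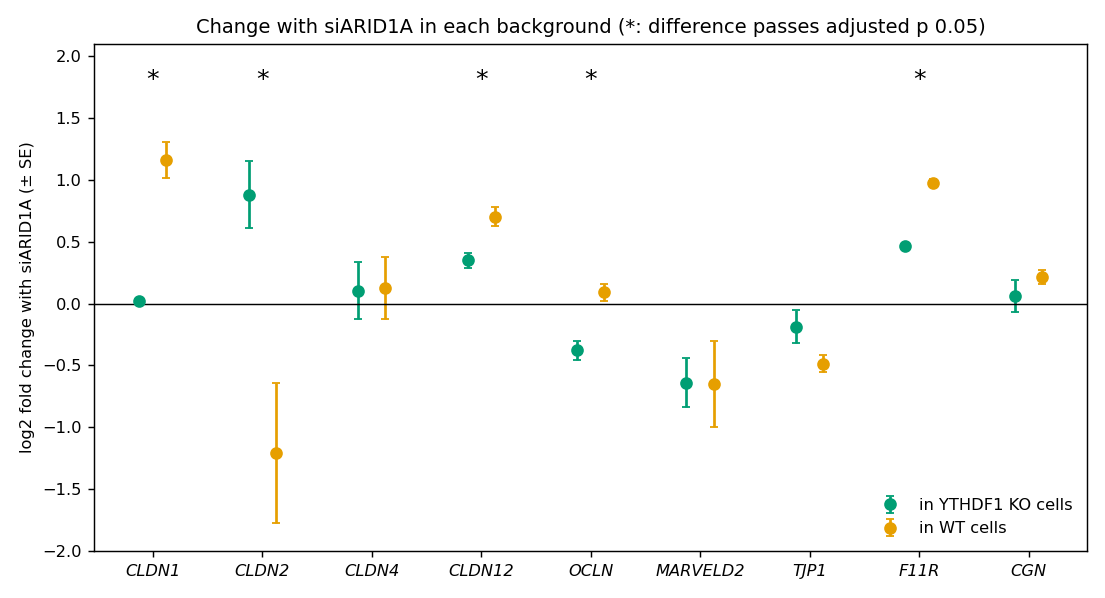
Log2 fold change with siARID1A (± SE) of the 9 tested members in YTHDF1 KO cells and in WT cells, with a star where the difference between them passed. CLDN1 changed by 0.03 in YTHDF1 KO cells and by 1.16 in WT cells.

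Across the 12 libraries the members fell into patterns that can be described by correlation of log2 CPM. These values rest on 4 group levels with 3 libraries each and are given without a test. CLDN1 ran with CLDN12 (r = 0.884) and against CLDN2 (-0.942) and TJP1 (-0.897). CLDN12 ran with F11R (0.878) and against TJP1 (-0.936). Among the other genes with a mean of at least 10 CPM, the one most like CLDN1 was MCTP1 (0.996), with mean CPM of 41.7 in YTHDF1 KO, 24.01 in siARID1A, 41.1 in the combined group and 10.996 in WT. For CLDN2 it was DOCK11 (0.973), at 9.84, 22.4, 13.7 and 33.4 CPM in the same order, for CLDN12 ZEB2 on chromosome 2 (0.989) and for TJP1 R3HDM1 on chromosome 2 (0.981). The others were PAPSS2 for F11R (0.991), HMGA2 for OCLN (0.969), MYO1E for CGN (0.946), COPS4 for MARVELD2 (0.854) and CDAN1 for CLDN4 (0.814).

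Other membrane proteins of the junction were counted on a list of 12 genes, 8 of which were tested. Against WT 2 rose and 3 fell in YTHDF1 KO, 7 rose and none fell in siARID1A, and 2 rose and 3 fell in the combined group. Of all tested genes 19.6%, 22.1% and 25.6% were called higher in these comparisons, and 20.8%, 23% and 25.9% lower. The list's median log2 fold change was -0.25, 1.11 and -0.54 in the same order, and the last stayed -0.54 with ILDR2, which had 0 counts in the combined group, set to a floor of 3 counts over the group. EPCAM is on this list and on the epithelial one. JAM3, a relative of F11R, rose in all 3, at 13.8 ± 1.13 CPM in YTHDF1 KO, 10.3 ± 0.662 in siARID1A, 13.2 ± 0.841 in the combined group and 3.28 ± 0.646 in WT (SD, n = 3), with log2 fold changes of 2.06, 1.64 and 1.99 (adjusted p = 6.67e-12, 9.13e-10 and 9.33e-12). CXADR, the coxsackievirus and adenovirus receptor, rose by 0.78 ± 0.10, 0.83 ± 0.18 and 1.32 ± 0.10 in YTHDF1 KO, siARID1A and the combined group (adjusted p = 1.20e-06, 4.98e-07 and 1.10e-10). LSR, the angulin that recruits tricellulin to tricellular contacts, moved in both directions: it stood at 5.92 ± 0.612 CPM in YTHDF1 KO, 19.8 ± 0.897 in siARID1A, 4.45 ± 0.568 in the combined group and 9.92 ± 0.399 in WT (SD, n = 3), with log2 fold changes of -0.74, 1.00 and -1.16 (adjusted p = 2.63e-05, 1.91e-07 and 3.48e-08). BVES, a membrane protein of cell contacts, rose in siARID1A by 0.52 ± 0.10 (1.21e-04) and stood at -0.03 and 0.00 in the groups with the knockout.

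Among 25 other plaque and polarity genes, all tested, 4 rose and 10 fell in YTHDF1 KO, 10 rose and 3 fell in siARID1A, and 5 rose and 9 fell in the combined group, each against WT, with medians of -0.14, 0.06 and -0.12 on the log2 scale. The shares called over all genes were 40.4%, 45.2% and 51.5%. TJP3, a scaffold related to TJP1, stood at 2.41 ± 0.350 CPM in YTHDF1 KO, 8.45 ± 3.23 in siARID1A, 6.06 ± 1.42 in the combined group and 8.85 ± 0.395 in WT (SD, n = 3). Its log2 fold change was -1.88 ± 0.13 in YTHDF1 KO (adjusted p = 1.23e-06) and -0.55 ± 0.19 in the combined group (0.0364). CGNL1, the paralog of CGN, rose in siARID1A, at 7.33 ± 0.599 CPM against 4.88 ± 0.528 in WT (0.58 ± 0.11, adjusted p = 0.00199), and did not pass in YTHDF1 KO (-0.21 ± 0.11, 0.272) or the combined group (0.26 ± 0.10, 0.147). AMOTL1, an angiomotin-family protein of junctions, fell in YTHDF1 KO, rose in siARID1A and fell in the combined group, with log2 fold changes of -0.95 ± 0.08, 1.34 ± 0.08 and -0.27 ± 0.11 (4.70e-09, 7.84e-12 and 0.0128). PARD6B, a subunit of the apical polarity complex, rose in siARID1A by 1.12 ± 0.24 (5.17e-05), and RAB13, a GTPase of junction assembly, rose in all 3 groups by 0.47 ± 0.26, 0.79 ± 0.25 and 0.53 ± 0.25 (0.0122, 9.77e-05 and 0.00427).

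The neighbouring adherens junctions and desmosomes were counted on 17 genes, all tested. Against WT 4 rose and 10 fell in YTHDF1 KO, 6 rose and 7 fell in siARID1A, and 5 rose and 10 fell in the combined group, with median log2 fold changes of -0.25, 0.09 and -0.22. The shares called over all genes were again 40.4%, 45.2% and 51.5%. PKP2, a desmosomal plaque protein, fell in all 3, at 13.6 ± 0.742 CPM in YTHDF1 KO, 20.5 ± 1.81 in siARID1A, 8.26 ± 0.811 in the combined group and 45.5 ± 4.55 in WT (SD, n = 3), with log2 fold changes of -1.74, -1.15 and -2.46 (adjusted p = 5.30e-13, 1.27e-09 and 1.00e-15). CTNNB1, beta-catenin, fell where ARID1A was silenced, with a log2 fold change of -1.79 ± 0.11 in siARID1A (adjusted p = 3.23e-14) and -1.47 ± 0.12 in the combined group (2.42e-13), and stood at 0.02 ± 0.09 in YTHDF1 KO (0.845). DSC2, a desmosomal cadherin, fell, with log2 fold changes of -1.75 ± 0.06 in YTHDF1 KO and -1.001 ± 0.08 in the combined group (6.74e-11 and 3.39e-07), and PKP3, another desmosomal plaque protein, fell there too, at -1.29 ± 0.08 and -1.61 ± 0.12 (1.90e-11 and 2.53e-13). CDH1, the cadherin of epithelial adherens junctions, stood at 41.6 ± 2.62 CPM in YTHDF1 KO, 171 ± 15.4 in siARID1A, 109 ± 1.14 in the combined group and 104 ± 2.42 in WT (SD, n = 3). Its log2 fold change was -1.32 ± 0.06 in YTHDF1 KO (1.74e-13) and 0.72 ± 0.08 in siARID1A (1.10e-08).

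Of 18 transcription factors known to act on junction genes, 16 were tested. Against WT 5 rose and 7 fell in YTHDF1 KO, 4 rose and 5 fell in siARID1A, and 5 rose and 9 fell in the combined group, with median log2 fold changes of -0.51, -0.14 and -0.36. Here too, 40.4%, 45.2% and 51.5% of all genes were called. GRHL3, a grainyhead-like activator of epithelial genes, stood at 7.71 ± 0.611 CPM in YTHDF1 KO, 5.94 ± 1.25 in siARID1A, 12.6 ± 0.300 in the combined group and 0.447 ± 0.214 in WT (SD, n = 3). Its log2 fold change was 4.11 ± 0.44, 3.73 ± 0.46 and 4.82 ± 0.43 in YTHDF1 KO, siARID1A and the combined group (adjusted p = 3.33e-13, 6.09e-12 and 7.53e-15). The searched GRHL motif is in none of the members' 15 promoter windows. Only 0.117% of all RefSeq windows hold it, so its absence from 15 cannot decide whether GRHL3 acts on the members, which was not tested. ZEB2, a repressor of epithelial genes, rose by 1.15 ± 0.13, 1.16 ± 0.13 and 1.54 ± 0.12 (4.70e-09, 5.75e-09 and 1.46e-11). HNF4A, a nuclear receptor of endodermal epithelia, stood at 35.5 ± 1.04 CPM in YTHDF1 KO, 70.8 ± 7.30 in siARID1A, 35.6 ± 2.79 in the combined group and 129 ± 14.7 in WT (SD, n = 3). It fell in all 3, with log2 fold changes of -1.86 ± 0.10, -0.86 ± 0.13 and -1.86 ± 0.12 (1.03e-14, 1.23e-08 and 7.53e-15). HNF4A, like CLDN2, was highest in WT and next highest in siARID1A, and its YTHDF1 KO and combined groups were level.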

How the data were processed

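Per the labels' protocols, total RNA of A549 cells was made into stranded libraries. Per the submitters' processing notes, reads on GRCh38 passed through Trim Galore 0.6.6, STAR 2.7.0d and featureCounts 2.0.1, and edgeR 3.32.1 is also named. Which annotation and strandedness the counting used is not given in the sources used here. The authors deposited raw counts per Ensembl gene (60617 genes, 12 libraries, unnormalised whole numbers). Symbols are from a gene name table, positions, lengths and overlaps from GENCODE 29, and promoters from RefSeq (9 of 10 members matched).

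Counts were analysed with R 4.3.3 and edgeR 4.0.16: filterByExpr over the groups (it kept 18524 genes and dropped 42093), TMM factors (0.912 to 1.055), 1 fit of all 12 libraries, robust quasi-likelihood F tests, two-sided, with Benjamini-Hochberg adjustment over all genes tested in each comparison. The biological coefficient of variation was 9.44%. SEs come from replicate SDs of log2 CPM with a prior count of 2. The interaction subtracts the siARID1A effect in WT cells from that in knockout cells. No 2 libraries of the same group agreed within sampling noise (lowest chi-square per degree of freedom 3.35), and pairs from different groups were not compared.

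Named genes were all members, both targets, CLDN3, TJP3 and CGNL1, per list up to 4 genes called against WT with the largest change and a mean of at least 5 CPM, and the gene most correlated with each member. Some genes this rule names are not reported here. The members and lists were chosen with earlier results of these data known. The script was tested on simulated data. Alternatives were RLE factors, library totals, TMM without genes of chromosomes 2 and 9 (which shifted as blocks, by an extent not reported here), no filter, DESeq2 1.42.0, a replicate block, a fit of the compared groups alone, each library left out in turn, and transcript length for TPM.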

Additional observations from a re-analysis of the deposited data

Results flagged for a closer look

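The change with siARID1A differed between YTHDF1 KO cells and WT cells for 5 members, by the interaction term of edgeR's quasi-likelihood test. The difference of log2 fold changes, knockout cells minus WT cells, was -1.14 for CLDN1, 2.09 for CLDN2, -0.36 for CLDN12, -0.47 for OCLN and -0.51 for F11R. CLDN1 passed on its own in WT cells and not in the knockout cells, and F11R and CLDN12 rose in both backgrounds but by less in the knockout cells. CLDN2 and OCLN had values of opposite sign in the 2 backgrounds, although the CLDN2 change in knockout cells and the OCLN change in WT cells did not pass on their own. That CLDN2 change did pass when only the groups compared entered the fit (adjusted p = 0.0147). Over all tested genes 17.1% passed this test. CLDN1 and F11R passed in all 18 alternative analyses, CLDN12 in 11, OCLN in 12 and CLDN2 in 10, and with 1 library left out the number of members passing was as low as 2.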

How the results depend on the processing

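Over 54 pairs of member and comparison and 1017 alternative values, 941 kept their direction and their side of the threshold, 44 lost the threshold, 8 newly passed it, and 24, in 7 pairs, changed sign, none of them called with all libraries or in the alternative. F11R in the combined group against siARID1A was 0.0297 on library totals. The MARVELD2 interaction was -0.0138 with RLE factors, -0.0101 on library totals, -0.0168 with no filter, -0.00475 with the replicate block and -0.0131 with DESeq2. With each library left out it ranged from -0.201 to 0.337, the CLDN4 interaction from -0.352 to 0.180, CLDN4 from -0.0381 to 0.449 in siARID1A against WT and from -0.0752 to 0.306 in the combined group against YTHDF1 KO, CGN from -0.0249 to 0.154 between those same groups, and MARVELD2 from -0.488 to 0.0495 in the combined group against siARID1A. With each library left out in turn, the number of members called ranged from 6 to 7 in YTHDF1 KO against WT (7 with all libraries), from 5 to 5 in siARID1A against WT (5), from 6 to 7 in the combined group against WT (7), from 2 to 4 in the combined group against YTHDF1 KO (3), from 5 to 6 against siARID1A (6), and from 2 to 5 in the interaction (5). The interaction count was 3 without YTHDF1 KO replicate 1, 2 or 3, without siARID1A replicate 1 or 3 or without combined replicate 2, and 2 without combined replicate 3, and the cause was not tested. The other alternatives left these counts within 1 of the main ones. The median of all genes in the combined group against WT was 0.13 on library totals and -0.01 with TMM, and on library totals calls over all genes were 6074 higher and 3505 lower there (4742 and 4795 with TMM) and 4765 and 3016 in YTHDF1 KO against WT (3630 and 3859). With TMM factors taken without genes of chromosomes 2 and 9, the median in the combined group against WT was -0.05, with 4298 genes higher and 5197 lower. Same-numbered libraries did not deviate together (correlations from -0.042 to 0.033), so the numbers were not taken as pairs. With the replicate block the member counts were 7, 5, 7, 3, 6 and 5 in the 6 comparisons, as without it, and CLDN2 in siARID1A against WT was -1.28. Members at low counts (CLDN4, CLDN7 and MARVELD2, and CLDN2 in the knockout) limit what can be seen.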
